A study of Mus musculus with 12 samples.

Results

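The 10 genes described here, called the iron genes, carry the uptake, export, storage and sensing of iron in the data of newborn mouse brains with and without the protein kinase KIS, which the gene Uhmk1 encodes. They are Tfrc, Trf, Slc11a2, Steap3, Slc40a1, Cp, Fth1, Aco1, Ireb2 and Hmox1, and they were chosen by name, starting from Tfrc, whose lower signal in KIS-ko brains over all its probesets prompted the choice. The other 9 were taken for their known roles. The 10 genes are 10 of 17279 genes measured, and 163 of their 168 main probesets passed the filter on spread. Total RNA of whole brains of newborn female mice was hybridized to exon arrays, with 1 array per brain, for 6 wildtype (KIS +/+) and 6 KIS-ko (KIS -/-) animals. The paper describes 6 pairs of littermates, and each pair, matched here by replicate number, is treated as a litter. The mice came from a KIS knock-out line backcrossed to C57BL6/N, for which the sources used here give no restriction to a cell type. A probeset is a group of short probes in 1 exon or part of one. The gene value used below is the mean over a gene's probesets of log2(signal + 16), and a difference is the KIS-ko value minus that of the wildtype littermate on this log2 scale.

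Cells take up iron bound to the carrier transferrin, the product of Trf, through the transferrin receptor, the product of Tfrc. In the endosome iron is reduced, for which Steap3 encodes a reductase, and leaves through the transporter DMT1 (Slc11a2), to be used, stored in ferritin (Fth1 encodes its heavy chain) or exported through ferroportin (Slc40a1), which works with the ferroxidase ceruloplasmin (Cp). When iron is scarce, the iron regulatory proteins IRP1 (Aco1) and IRP2 (Ireb2) bind iron-responsive elements in mRNAs: elements after the coding sequence, as in Tfrc and in 1 form of Slc11a2, stabilize the mRNA, whereas elements before it, as in Fth1 and Slc40a1, restrain translation. An array of RNA levels can therefore register the former and not the latter. In the brain the receptor is most abundant in the endothelium of the vessels and in neurons.

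The sequences shown belong to Tfrc, the gene that prompted the choice. The study designed 3 primers for Tfrc, of which the first spans the junction of exon 4 and exon 5 and so reads spliced mRNA, the second lies in intron 4 and so reads unspliced RNA, and the third, in exon 5, serves as the reverse primer. The primers served PCR measurements that are not analysed here.

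Tfrc_f1: tgctgacaccatcaagcagctgag

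Tfrc_f2: gacagccagggctacacagaaacctt

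Tfrc_r1: tgttcatctcgccagactttgctga

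Tfrc is also a textbook target of the hypoxia-inducible factors, and its promoter is shown beside the hypoxia genes measured below. The 250 bases before its first RefSeq start site lie at chr16:32608646-32608895 on the plus strand of GRCm38.p6, and capitals mark the core motif GCGTG, read here on the minus strand as CACGC.

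Tfrc promoter: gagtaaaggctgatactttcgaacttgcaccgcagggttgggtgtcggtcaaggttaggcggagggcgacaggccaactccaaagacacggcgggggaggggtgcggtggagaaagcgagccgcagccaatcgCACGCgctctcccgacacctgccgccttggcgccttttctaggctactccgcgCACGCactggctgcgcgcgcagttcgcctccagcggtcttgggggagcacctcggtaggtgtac

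Its 2 matches start at positions -117 and -64 from the start site, and neither overlaps the E-box CACGTG. Searched on both strands, ACGTG or GCGTG occurs in 38.6% of the 32851 RefSeq windows of this length, so a match is common. Promoters of 6 of the 10 genes are in the RefSeq table, with 2 start sites each for Tfrc, Fth1 and Cp, 4 for Steap3 and 1 each for Aco1 and Ireb2. A match was found at both starts of Tfrc, at 1 of 4 of Steap3 and at 1 of 2 of Fth1.

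The arrays were alike, with pairwise correlations of 0.978 to 0.992 and median signals of 460 to 526. Uhmk1 was lower in KIS-ko in 6 of 6 litters, with a difference of -2.11 ± 0.19 (SD, n = 6 litters) and a limma adjusted p of 2.9e-07, as the genotype labels state. It was the only gene of 17279 called at an adjusted p of 0.05, or 0.00579% of genes, while 1065 genes had an unadjusted p under 0.05. Most genes were slightly lower in KIS-ko: 69.8% of all genes had a lower mean, and the median gene differed by -0.036. By litter the median gene differed by -0.046, -0.086, 0.002, 0.071, -0.052 and -0.112 in litters 1 to 6, so litter 4 ran opposite to most others. After each array was centred on its median signal, the share of genes with a lower mean was 38.6%, and after a further quantile normalization it was 48.6%, so the signs of small differences depend on the scaling. Whole brain was measured, and fewer cells of a type and less RNA per cell cannot be told apart.

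None of the 9 genes tested was called. Of the 10 genes, 8 had a lower mean in KIS-ko, against the 69.8% of all genes. Without Tfrc, 7 of 9 were lower, with a median difference of -0.093 against -0.036 for all genes, and 1 of the 9 (Slc40a1) had an unadjusted limma p under 0.05 in the lower direction, against 4.34% of all genes. None of the 9 passed that limit in the higher direction, which 1.82% of all genes did. Steap3 and Hmox1 had higher means, and Trf, Slc40a1, Cp and Ireb2 had means lower by 0.1 or more on the log2 scale. With arrays centred on their medians, 6 of the 9 were lower, against 38.6% of all genes, and none had an unadjusted p under 0.05. In that setting the differences were -0.065 for Trf, -0.037 for Slc11a2, -0.098 for Slc40a1, -0.059 for Cp, -0.007 for Aco1 and -0.044 for Ireb2. Those of Steap3, Hmox1 and Fth1 were 0.14, 0.073 and 0.017, so that Fth1 changed sign and no gene of the 9 was lower by 0.1.

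**Figure D1:**
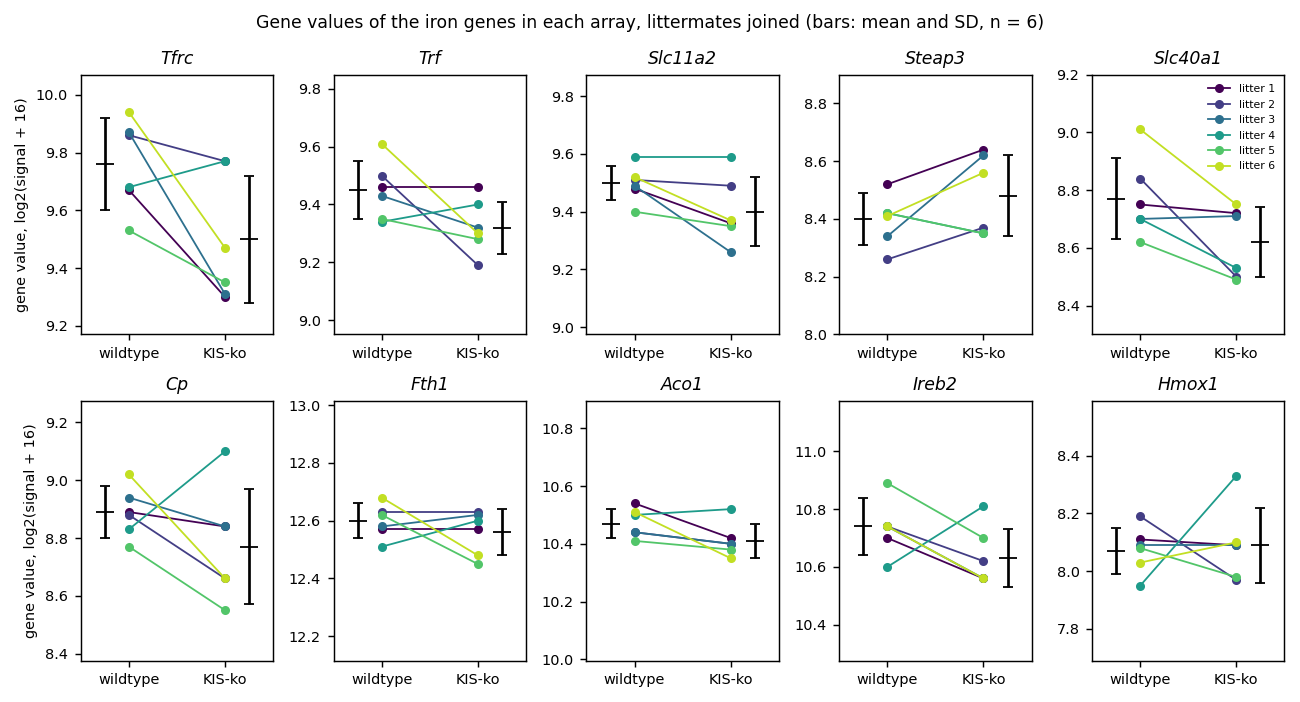
Gene values, log2(signal + 16), of the 10 iron genes in the 12 arrays, with littermates joined by a line and black bars for the mean and SD of each genotype (n = 6); each panel spans the same range of log2 units around its own centre. The wildtype and KIS-ko values overlap for each of the 10 genes, and the Tfrc line rises in litter 4 and falls in the other 5.

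Tfrc was lower in KIS-ko in 5 of 6 litters, a description since this difference prompted the choice of genes. The gene spans chr16:32613279-32632370 in the deposited table, whose genome build is not given in the sources used here, as for all table positions that follow. Its gene value in wildtype brains was 9.67, 9.86, 9.87, 9.68, 9.53 and 9.94 in litters 1 to 6. In the KIS-ko littermates it was 9.30, 9.77, 9.31, 9.77, 9.35 and 9.47. The genotypes overlapped: the KIS-ko brains of litters 2 and 4 reached the wildtype range, and the other 4 lay below its lowest array. The mean difference was -0.26 ± 0.25 (SD, n = 6 litters), and Tfrc was not among the genes called, of which Uhmk1 was the only one. The differences by litter ran from -0.56 in litter 3 to 0.10 in litter 4.

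The lower Tfrc signal ran along the whole transcript. All 20 probesets kept had a lower mean in KIS-ko, from -0.46 to -0.11 with a median of -0.27, over 18.2 kb from the first probeset to the last. The most 5′ probeset differed by -0.16 with signals of 1130 in wildtype and 1020 in KIS-ko, and the most 3′ probeset by -0.23 with signals of 2720 and 2330. Of the 20 probesets, 12 were brighter than 713, the signal that 95% of the intron controls of the array stay below, and without the dimmer probesets the gene differed by -0.23. One further probeset was rejected for its spread, with mean signals of 66.3 and 36.8. By the study's own measure, a mean of the littermate ratios weighted by the inverse of their relative spread, Tfrc stood at a fold change of 0.857 ± 0.129 (SD, n = 6 pairs).

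Trf, which encodes the transferrin carrier that the receptor binds, was measured by 20 probesets at chr9:103111232-103132545. Its gene value ran from 9.34 to 9.61 with a median of 9.44 in wildtype brains and from 9.19 to 9.46 with a median of 9.31 in KIS-ko brains. The ranges overlapped, and 5 of 6 litters were lower. The difference was -0.12 with a 95% interval of -0.26 to 0.01 and a limma adjusted p of 0.685. The interval includes 0. Its probesets were uneven: 5 of 20 had an unadjusted limma p under 0.05, all lower, and the lowest differed by -0.45, while the 3 most 5′ probesets differed by -0.02, 0.06 and less than 0.005 in size. All 5 were dimmer than 95% of the intron controls. The 7 brighter probesets alone gave -0.073 with an unadjusted limma p of 0.191.

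Slc11a2, which encodes the endosomal transporter DMT1 and is the other member with an iron-responsive element after the coding sequence in 1 of its mRNA forms, lies at chr15:100218459-100242693. Its gene value ran from 9.40 to 9.59 with a median of 9.50 in wildtype brains. In KIS-ko brains it ran from 9.26 to 9.59 with a median of 9.36. KIS-ko was lower in all 6 litters, as were 1.6% of all genes, but in litters 2 and 4 by 0.01 or less, and after the median gene of each litter was subtracted 4 of 6 litters were lower. The difference was -0.09 with a 95% interval of -0.20 to 0.02 and a limma adjusted p of 0.685, which was not called. The 9 of its 22 probesets brighter than 95% of the intron controls alone gave -0.042 with an unadjusted limma p of 0.404.

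The transcripts of Slc11a2 end in different exons, and the table assigns the 4 probesets of the most 3′ exon to another transcript than the other 18. The table does not say which of the ends holds the iron-responsive element. The 4 probesets differed by -0.18 ± 0.11 (SD, n = 6 litters) and were lower in 6 of 6 litters. The other 18 differed by -0.07 ± 0.11 and were lower in 3 of 6. The difference between both parts was -0.11 ± 0.17, and a two-sided exact sign-flip permutation test over the 6 litters gave p = 0.25, so a shift between the ends was not shown.

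**Figure D2:**
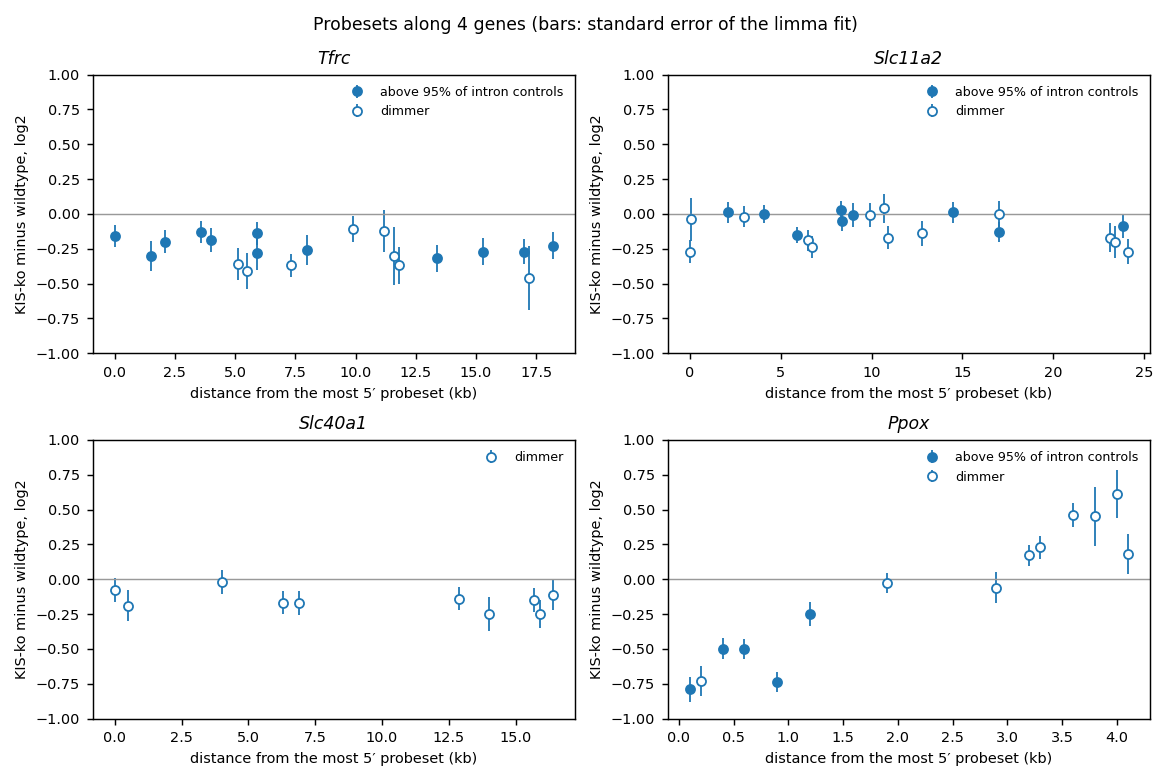
Difference between KIS-ko and wildtype littermates of each probeset kept, on the log2 scale with the standard error of the limma fit, against the distance in kb from the most 5′ probeset, for Tfrc, Slc11a2, Slc40a1 and Ppox; filled points are brighter than 95% of the intron controls. The points of Tfrc and Slc40a1 all lie below 0, those of Slc11a2 lie on both sides, and those of Ppox go from -0.79 near the 5′ end to 0.61 towards the 3′ end.

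Steap3, which encodes the ferrireductase of the endosome, had a higher mean in KIS-ko. Its gene value ran from 8.26 to 8.52 with a median of 8.41 in wildtype and from 8.35 to 8.64 with a median of 8.46 in KIS-ko brains. The values overlapped, and 4 of 6 litters were higher. The difference was 0.09 with a 95% interval of -0.04 to 0.22 and a limma adjusted p of 0.685. It rested on few probesets at chr1:122123590-122169214, of which only 2 of 9 were brighter than 95% of the intron controls: the brightest, in the second exon and marked in the table as open to cross-hybridization, differed by 0.35, and the median over the probesets gave a gene difference of -0.04. The 2 brighter probesets alone gave 0.20 (with an unadjusted limma p of 0.017 and an adjusted p of 0.748), a filter on spread at 0.2 gave 0.015, and without litter 3 the difference was 0.047.

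Slc40a1 encodes ferroportin, the iron exporter, and had the lowest difference of the 9 genes tested. In wildtype brains its gene value ran from 8.62 to 9.01 with a median of 8.73. In KIS-ko brains it ran from 8.49 to 8.75 with a median of 8.62. The genotypes overlapped, and KIS-ko was lower in 5 of 6 litters, from -0.34 in litter 2 to 0.01 in litter 3. The difference was -0.15 with a 95% interval of -0.28 to -0.03, an unadjusted limma p of 0.022 and an adjusted p of 0.685. All 10 probesets, at chr1:45965334-45982108, were lower, from -0.25 to -0.02, but none was brighter than 95% of the intron controls. With arrays centred on their medians the difference was -0.098 with an unadjusted limma p of 0.086, and without litter 2 or litter 6 it was -0.12 or -0.13 with unadjusted p of 0.079 and 0.062.

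Cp, the ferroxidase that accompanies ferroportin on astrocytes, was measured by 22 probesets at chr3:19857054-19892922, 3 of them brighter than 95% of the intron controls. Its gene value ran from 8.77 to 9.02 with a median of 8.88 in wildtype and from 8.55 to 9.10 with a median of 8.75 in KIS-ko brains, whose range took in that of the wildtype. KIS-ko was lower in 5 of 6 litters and higher by 0.27 in litter 4. The difference was -0.11 with a 95% interval of -0.28 to 0.05 and a limma adjusted p of 0.685. It depended on single litters: without litter 4 it was -0.19 (with an unadjusted limma p of 0.008 and an adjusted p of 0.138), and without litter 6 it was -0.065. The median over probesets gave -0.051.

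Fth1 encodes the heavy chain of the storage protein ferritin. Its gene value ran from 12.51 to 12.68 in wildtype and from 12.45 to 12.63 in KIS-ko brains, with medians of 12.60 and 12.58. Litters split evenly, 3 lower and 3 higher, and the difference was -0.04 with a 95% interval of -0.16 to 0.08 and a limma adjusted p of 0.782. The gene has processed copies in the genome, and 2 of its 5 probesets, at chr19:10057366-10059569, are marked in the table as open to cross-hybridization, so its signal may hold that of copies; the 3 others alone gave -0.042.

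The sensors were both slightly lower, and neither was called. Aco1, an enzyme of the cytosol that becomes IRP1 when it loses its iron-sulphur cluster, is at chr4:40110752-40145223 and ran from 10.41 to 10.54 in wildtype and from 10.35 to 10.52 in KIS-ko brains. Its medians were 10.47 and 10.40, and 5 of 6 litters were lower. The difference was -0.06 with a 95% interval of -0.17 to 0.04 and a limma adjusted p of 0.688. Ireb2, which encodes IRP2, a sensor that is degraded when iron is plentiful, is at chr9:54711652-54757664 and ran from 10.60 to 10.89 in wildtype and from 10.56 to 10.81 in KIS-ko brains. It was lower in 5 of 6 litters, by 0.12 or more in each, and higher by 0.21 in litter 4. The difference was -0.10 with a 95% interval of -0.24 to 0.04 and a limma adjusted p of 0.685, and 23 of its 24 probesets were lower. Without litter 4 it was -0.16 (with an unadjusted limma p of 0.004 and an adjusted p of 0.129). Both sensors act mostly through binding and protein stability, which RNA levels do not read.

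Hmox1, which encodes the enzyme that frees iron from haem, is induced by haem and by oxidative stress. Its gene value ran from 7.95 to 8.19 with a median of 8.09 in wildtype and from 7.97 to 8.33 with a median of 8.09 in KIS-ko brains. The difference was 0.02 with a 95% interval of -0.14 to 0.18 and a limma adjusted p of 0.921. The KIS-ko brain of litter 4 held the highest value, and 4 of 6 litters were lower. None of the 9 Hmox1 probesets, at chr8:77617581-77624310, was brighter than 95% of the intron controls.

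**Figure D3:**
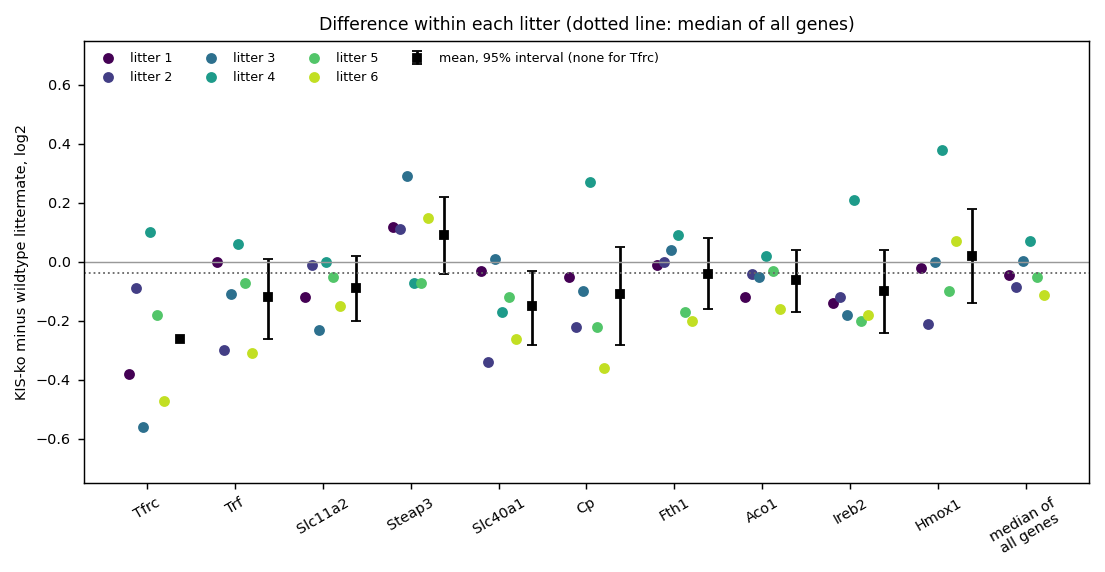
Difference between the KIS-ko brain and its wildtype littermate, on the log2 scale, for each of the 10 iron genes and for the median of all genes; coloured points are litters, and black squares are means with the 95% interval of the limma fit (no interval for Tfrc). Litter 4 is the highest point for Tfrc, Trf, Slc11a2, Cp, Fth1, Aco1, Ireb2 and Hmox1, and the interval leaves out 0 only for Slc40a1 of the 9 genes tested.

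By probeset, 118 of the 143 probesets of the 9 genes were lower and 25 higher, where 66.2% of all probesets were lower. None was called at an adjusted p of 0.05, as were 0.00487% of the 205469 probesets of the array. At an unadjusted limma p under 0.05, 14 (9.79%) were lower, against 4.72% of all probesets, and 1 was higher, against 1.91%. These 14 lie in 4 genes (Trf 5, Slc11a2 5, Cp 3 and Slc40a1 1), and the probesets of a gene share its transcripts, so they do not count as separate observations. Except for a Slc11a2 probeset with mean signals of 1200 in wildtype and 1080 in KIS-ko, all 14 were dimmer than 713, the intron control limit. By the study's weighted measure the 9 genes ran from Slc40a1 at a fold change of 0.913 ± 0.082 (SD, n = 6 pairs) to Steap3 at 1.069 ± 0.094.

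Litter 4 stood apart for these genes. Its KIS-ko brain was higher than its littermate in Tfrc (0.10), Cp (0.27), Ireb2 (0.21) and Hmox1 (0.38), and its median gene was higher by 0.071. Without litter 4, 5 of the 9 genes (Trf, Slc11a2, Slc40a1, Cp and Ireb2) had an unadjusted limma p under 0.05 and were lower, but so did 19.0% of all genes, against 4.34% with all litters. None was called after adjustment in that fit either.

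How the genes varied with Tfrc from litter to litter was compared over the 6 litters, with the median gene of each litter subtracted, for 9 genes. By Pearson's r the highest correlation was that of Slc11a2, with r = 0.75 (exact permutation p = 0.076) and Spearman's rho = 0.54 (exact permutation p = 0.297). The lowest by r was that of Slc40a1, with r = -0.81 (exact permutation p = 0.09) and rho = -0.66 (exact permutation p = 0.175). By rho the order was another: the highest was Ireb2, with rho = 0.77 (exact permutation p = 0.103) and r = 0.72 (exact permutation p = 0.09), and the lowest Steap3, with rho = -0.83 (exact permutation p = 0.058) and r = -0.72 (exact permutation p = 0.115). After Benjamini-Hochberg adjustment over the 9 genes the smallest p was 0.259 for r and 0.462 for rho, so no relation passed 0.05 on this scale. Without litters 3 and 4, the farthest in Tfrc, r was 0.93 for Slc11a2, -0.64 for Slc40a1, 0.16 for Ireb2 and -0.34 for Steap3. The highest r was then that of Aco1 (0.95) and the lowest that of Hmox1 (-0.90). The results depended on the scaling. Without subtraction of the median gene, an alternative chosen after seeing the data, r of Slc40a1 was -0.47 (exact permutation p = 0.338). For Slc11a2 r was then 0.96 (exact permutation p = 0.008, adjusted over the 9 genes 0.075) and rho was 1.00 (exact permutation p = 0.003, adjusted 0.025), with r of 1.00 without litters 3 and 4. On that scale both genes carry the shift of the median gene of each litter, and of the 6053 genes compared 0.33% had a higher r with Tfrc than Slc11a2 and 0.314% a rho of 1. Since the scale was chosen with the values known and the relation did not pass 0.05 with the median gene subtracted, it is given as a description. Of the same genes, 7.81% had a higher r than Slc11a2 and 1.88% a lower r than Slc40a1 after the median gene was subtracted.

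Over the 12 arrays, each less its median gene value, 6053 other genes with at least 4 probesets and signals above the intron controls were compared with Tfrc, as a description. The points share the arrays, the littermates and the difference between genotypes. The genes most like Tfrc were Nat10 (r = 0.917), Smarcad1 (0.900), Fam48a (0.895), Mtf2 (0.880) and Cstf3 (0.874). The most opposed were Mmp15 (r = -0.948) and Ttyh2 (-0.897), followed by a gene (-0.890) that the table lists as a date in place of a symbol. None of the 10 iron genes was among them: of these, Slc11a2 came closest, at r = 0.66, a value that 1.87% of the genes exceeded, and Steap3 was the most opposed, at r = -0.79, with 0.71% of the genes lower.

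Beyond these genes, 58 of 66 listed genes of the wider iron pathway were measured, and none was called. Of the 58, 44 were lower and 14 higher, with a median of -0.051 against -0.036 for all genes, and none had an unadjusted limma p under 0.05 in either direction. With arrays centred on their medians 27 of 58 were lower.

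By role, 8 of 12 further uptake genes were lower, with the largest differences in Hfe (-0.09), a partner of the transferrin receptor, and Mcoln1 (-0.09), a channel that releases iron from lysosomes. Of 9 further storage and release genes 6 were lower, with the largest in Tmprss6 (0.12), a protease that restrains hepcidin, and Ncoa4 (-0.10), the receptor that delivers ferritin for breakdown. All 6 further sensing genes and transcripts with iron-responsive elements were lower, led by Cdc14a (-0.09) and Fbxl5 (-0.08), the iron-sensing subunit that marks IRP2 for degradation. Of 15 mitochondrial and iron-sulphur cluster genes 13 were lower, led by Slc25a37 (-0.10), the mitochondrial iron importer mitoferrin, and Abcb6 (-0.08). Of 16 haem genes 11 were lower, among them Ppox (-0.11), which encodes an enzyme of haem synthesis. The limma adjusted p of each of these genes was 0.685 or 0.690. With arrays centred on their medians the lower genes numbered 5 of 12, 1 of 9, 4 of 6, 9 of 15 and 8 of 16 in these 5 groups.

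The probesets of Ppox, which encodes protoporphyrinogen oxidase, an enzyme late in haem synthesis, differed in opposite directions. They were looked at singly after the values of the gene in other settings were seen. Its 5 probesets brighter than 95% of the intron controls were all lower, from -0.79 to -0.25. Of its 9 dimmer probesets 6 were higher and 3 lower, from -0.73 to 0.61. At an unadjusted limma p under 0.05, 6 of its probesets were lower and 3 higher, and the smallest adjusted p was 0.054. The direction followed position, with lower signals at the 5′ probesets and higher signals towards the 3′ end. With dim probesets left out, the gene differed by -0.56 with a limma adjusted p of 0.003, the only pathway gene called in any of the settings tried. Ppox lies at chr1:173207116-173211230 in the table, 1.06 Mb from Uhmk1, the deleted gene, and the part of this position in the result was not tested.

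**Figure D4:**
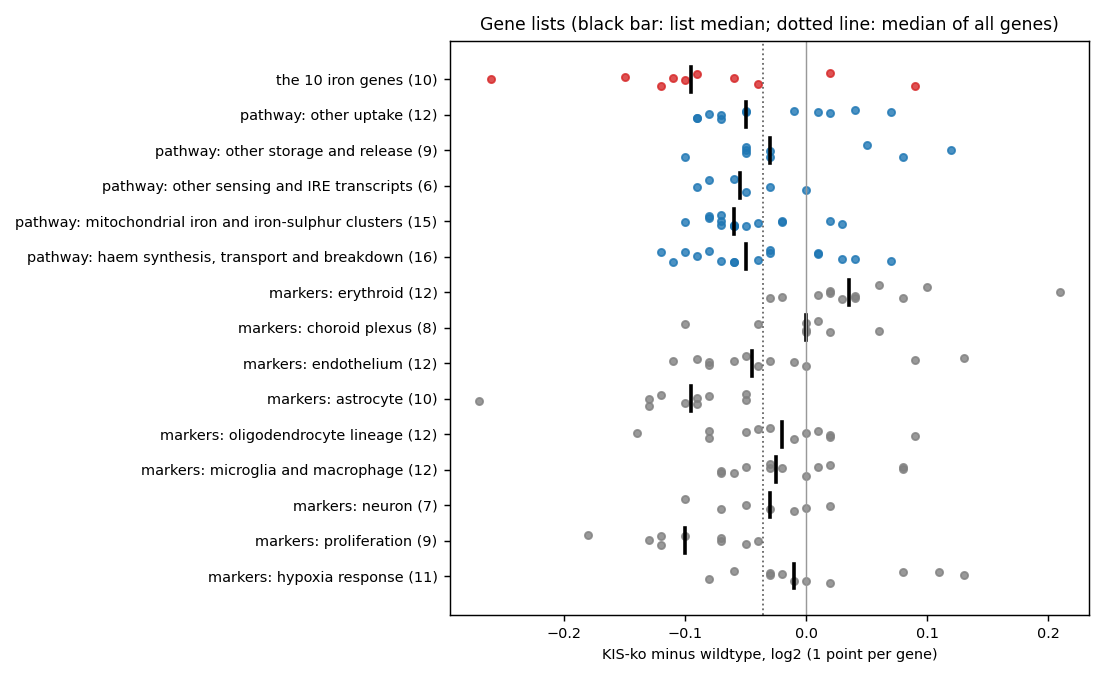
Difference between KIS-ko and wildtype, on the log2 scale, of each gene of the 10 iron genes (red), the wider iron pathway (blue) and marker lists (grey), with a black bar for the median of each list, the number of genes in brackets and a dotted line for the median of all genes at -0.036. The median of the 10 iron genes lies left of the dotted line, near those of the astrocyte and proliferation markers, and the erythroid median lies right of it.

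Markers of cell types that use or carry iron were set beside the iron genes. Erythroid markers, which include the iron-rich cells of the blood left in the brain and their Tfrc-bearing precursors, were not lower: 10 of 12 were higher, from Ermap (-0.03) to Hbb-bh1 (0.21), and the mean over the list ran from 7.89 to 8.12 in wildtype and from 7.99 to 8.07 in KIS-ko brains. Of the endothelial markers 9 of 12 were lower, from Cldn5 (-0.11) to Slc2a1 (0.13), with list means of 9.46 to 9.71 in wildtype and 9.43 to 9.62 in KIS-ko brains. All 10 astrocyte markers were lower, from Gfap (-0.27) to Fabp7 (-0.05), with list means of 10.43 to 10.64 in wildtype and 10.34 to 10.54 in KIS-ko brains. Centred on array medians, 8 of 10 were lower, as were 5 of 12 endothelial and 0 of 12 erythroid markers.

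All 9 proliferation markers were lower too, from Ccnb1 (-0.18) to Pcna (-0.04), with list means of 8.70 to 9.07 in wildtype and 8.69 to 8.94 in KIS-ko brains; dividing cells carry much transferrin receptor. In litters 1 to 6 the proliferation mean differed by -0.13, -0.17, -0.04, 0.19, -0.15 and -0.28. Tfrc differed by -0.38, -0.09, -0.56, 0.10, -0.18 and -0.47 in the same litters. Centred on array medians, 7 of 9 were lower. The part of these lists in the differences of the iron genes was not tested.

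The remaining lists had medians from -0.035 to 0.004, against -0.036 for all genes and -0.047 for the endothelial list. Hypoxia-response genes, with targets of the factor whose motif is marked above, were lower in 7 of 11, from Egln3 (-0.08) to Slc2a1 (0.13), with a median of -0.010. Choroid plexus markers, of a tissue that makes transferrin and ceruloplasmin, ran from Kl (-0.10) to Folr1 (0.06) with a median of 0.004. Oligodendrocyte markers, of the lineage that makes transferrin in the brain later in life, ran from Cnp (-0.14) to Mog (0.09) with a median of -0.020. Microglia markers ran from Csf1r (-0.07) to Cx3cr1 (0.08) with a median of -0.023, and neuron markers from Eno2 (-0.10) to Tubb3 (0.02) with a median of -0.035. Centred on array medians, lower genes numbered 2 of 11 hypoxia, 1 of 8 choroid plexus, 3 of 12 oligodendrocyte, 3 of 12 microglia and 2 of 7 neuron markers. None of the genes of these marker lists was called.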

How the data were processed

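Per the labels and the methods, the authors used PLIER in the Affymetrix Expression Console to estimate a signal per probeset, after quantile normalization of the exon-level data. The deposited intensity is this linear signal of each probeset on each of 12 arrays, with no build named for its positions. Of 229581 probesets, the 221417 main probesets with a symbol were used, less those whose SD over mean passed 0.4 among the wildtype or the KIS-ko arrays, the study's own filter, which left 205469.

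Gene values (the mean of log2(signal + 16) over probesets) were fitted with limma 3.58.1 in R 4.3.3, with genotype and litter as terms and Benjamini-Hochberg adjustment over all 17279 genes at 0.05. Probesets were fitted likewise. The fit was tested on simulated data. The litter of each array was taken to be its replicate number, which pairs each KIS-ko array with a wildtype array. Deviations of littermates so paired correlated from -0.114 to 0.473, with a mean of -0.019 between litters. The correlation was over 0.1 in 3 pairs, so these values alone do not settle the pairing. The 95th percentile of 5222 intron controls was 713, and 44.6% of the probesets kept lay above it. Precision is limited by dim signals and by the 12 arrays.

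Members, lists and tests were chosen with earlier results of these data known, so that no list is independent of them. Named in the text are the members, Uhmk1, the 2 genes of largest difference in each pathway list, the lowest and highest gene of each marker list, any called gene of a list, and the genes most and least like Tfrc; 1 gene that this rule names is not reported here. Of the listed genes, 8 pathway and 8 marker genes were not matched in the table and are not analysed here. Other tools were Python 3.11.15, numpy 2.4.6, pandas 2.3.3 and matplotlib 3.10.9. Alternatives were no litter block, pseudocounts of 1 and 64, removal of the SD filter or its tightening to 0.2, exclusion of dim probesets, unique matches only, a median in place of the mean over probesets, a second quantile normalization or centring of arrays, limma's trended robust moderation, and each litter left out.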

Additional observations from a re-analysis of the deposited data

Results flagged for a closer look

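The Hmox1 value of the KIS-ko brain of litter 4 lay far from the other KIS-ko brains: 8.33, where the nearest was 8.10, a gap of 0.645 of the range of the 6 arrays. It was the only one of 76 groups of 6 arrays, from 38 genes, in which a value stood so far out, and chance alone would give about 1 in 20. Without litter 4 the Hmox1 difference was -0.053 in place of 0.02.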

How the results depend on the processing

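No setting led to a call among the 10 iron genes, and 7 to 9 of them had a lower mean in each of the 17 alternatives. The Tfrc difference kept its direction in all of these, from -0.34 without litter 4 to -0.20 without litter 3. With no replicate block it was -0.26 and that of Slc40a1 -0.15 with a limma adjusted p of 0.747, and leaving out the litter block changed no call. With dim probesets left out 1 pathway gene, Ppox, was called, and Slc40a1 and Hmox1 could not be fitted since all their probesets were dim; with arrays centred on their medians 27 pathway genes were lower in place of 44. Centring turned the sign of 17 of the 58 pathway genes and 5398 of all 17279 genes. Among the genes named singly, the uncalled differences that changed sign were, with arrays centred on their medians, Fth1 (0.017), Ermap (0.017), Fabp7 (0.011) and Pcna (0.010); with arrays quantile-normalized again, Ermap (0.003); with the filter at 0.2, Ermap (0.047); with the median over probesets, Steap3 (-0.04), Cx3cr1 (-0.0), Tubb3 (-0.042) and Pcna (0.058); and with unique matches only, Hmox1 (-0.002). With 1 litter left out, Hmox1 ran from -0.053 to 0.066. Without subtraction of the median gene, chosen after seeing the data, the rho of Slc11a2 with Tfrc over litters was 1.00 in place of 0.54. The cause of these shifts was not tested. Without litter 4, 3913 genes had an unadjusted limma p under 0.05, against 1065 with all litters, and without litter 6, 550.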
